A study of Mus musculus with 6 samples.

Results

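This account follows 37 genes of collagens and other extracellular matrix proteins through 6 RNA-seq libraries of mouse microglia kept in vitro. The members are a list of gene names, matrix genes that fibroblast-like cells in such cultures would express. No level or fold change is part of the rule, but the list was drawn up with earlier results of these data known. All 37 were found by Entrez Gene identifier among the 36528 identifiers measured. They form 7 roles: fibril-forming collagens, beaded-filament and fibril-associated collagens, basement membrane and network proteins, small leucine-rich proteoglycans, adhesive and matricellular glycoproteins, elastic fibres with their cross-linking enzymes, and a matrix protease with its inhibitors. The groups were untreated wild-type microglia (WT_untreated), untreated Cop1 knockout microglia labelled Loxp_untreated, and wild-type microglia given lipopolysaccharide (WT_LPS), a component of bacterial outer membranes that Toll-like receptor 4 on microglia senses. Every group has 2 libraries. Neither the Cre driver or agent that removed the floxed gene, nor the dose and duration of LPS, nor the age of the animals is given in the labels. The groups are called untreated, Cop1 KO and LPS from here on, and pairs of values are given in the order replicate 1, replicate 2. These numbers were assigned here by the order of the samples within a group and match no libraries across groups.

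Collagens are proteins of chains wound into a triple helix, which are trimmed outside the cell, assembled into fibrils, beaded filaments or sheets, and cross-linked by lysyl oxidases. In the brain most of this matrix lies in the basement membranes of vessels and in the meninges, where fibroblasts, pericytes and endothelial cells make it, while the tissue between neurons holds mainly proteoglycans and hyaluronan from astrocytes and neurons. Microglia and other macrophages make fibronectin, thrombospondin and inhibitors of matrix proteases themselves, and COP1 is a ubiquitin ligase that marks transcription factors for degradation.

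Library totals lay between 20568144 and 22553708 counts, and replicates correlated across genes at r = 0.9985 to 0.999. The labels leave unsaid whether replicates are separate cultures, animals or technical repeats, and the p-values below therefore cover no more than the spread among these libraries. As a check of the knockout label, Cop1 stood at 12.7 and 11.5 CPM (reads of a gene relative to the TMM-scaled library total) in untreated libraries, 8.06 and 9.23 in Cop1 KO libraries and 23.4 and 27.2 in LPS libraries. It was lower in the knockout by 28.6% (edgeR quasi-likelihood test, Benjamini-Hochberg adjusted p = 0.00016). Its counts may include exons outside the deleted part, so the residual level checks the label only in part.

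The fibroblast label was set against 18 fibroblast markers outside the members, and these did not move together. Their summed level was 203 and 202 CPM in untreated, 257 and 248 in Cop1 KO and 184 and 189 in LPS libraries, most of it from Igfbp4, which encodes a secreted growth factor binding protein and stood at 141 and 140 CPM in untreated libraries. Dpt, Slc6a13 and Aldh1a2, which mark meningeal fibroblasts, had at most 3 counts in any library. Of the 12 markers tested, 4 rose in Cop1 KO (Igfbp4, Pdgfrb, Pi16, Mgp) and 5 fell (Pdgfra, Islr, Prrx1, Thy1, Cdh11). Over all genes tested, 28.1% rose there and 30.3% fell at an adjusted p under 0.05. These shares also stand beside the marker counts of the next paragraph. Pdgfra, a receptor that marks fibroblasts and oligodendrocyte precursors, had 347 and 384 counts in untreated libraries and 10 and 9 in Cop1 KO libraries. The genes are therefore called matrix genes here and are given no cell type. In bulk RNA, fewer cells of a type and less RNA per cell cannot be told apart.

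Markers of other cell types differed between the groups as well. The 11 astrocyte markers summed to 787 and 790 CPM in untreated, 55.7 and 51.2 in Cop1 KO and 878 and 883 in LPS libraries, and 10 of them fell in the knockout. The 10 neuron markers summed to 82.6 and 82.2, then 7.88 and 9.98, then 87.1 and 87.6 CPM in the same order, and all 9 tested fell in Cop1 KO. Oligodendrocyte lineage markers summed to 238 and 235, 175 and 173, and 357 and 339 CPM. Of 7 tested, 2 rose in Cop1 KO, Mbp (0.53, SE 0.05) among them. Another 4 fell by at least 2-fold, among them Olig1 (−3.86, SE 0.10) and Olig2 (−4.08, SE 0.18). Microglia markers rose in Cop1 KO for 11 of 13 tested and summed to 9991 and 9900 CPM in untreated, 15419 and 15256 in Cop1 KO and 8328 and 8079 in LPS libraries. Endothelial markers summed to 154 to 203 CPM in all libraries. In each library 5 of these 11 had at most 3 counts, among them Cldn5 with 0 counts throughout. Of 6 endothelial markers tested, 3 rose and 1 fell in Cop1 KO, and 4 rose and 1 fell with LPS. Mural markers summed to 46.2 to 72.8 CPM. Of 5 mural markers tested, 2 rose and 2 fell in Cop1 KO, and 1 rose and 4 fell with LPS. Over all genes tested, 30.2% rose and 43.4% fell with LPS. The part of these other cells in the changes of the matrix genes was not tested.

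**Figure D1:**
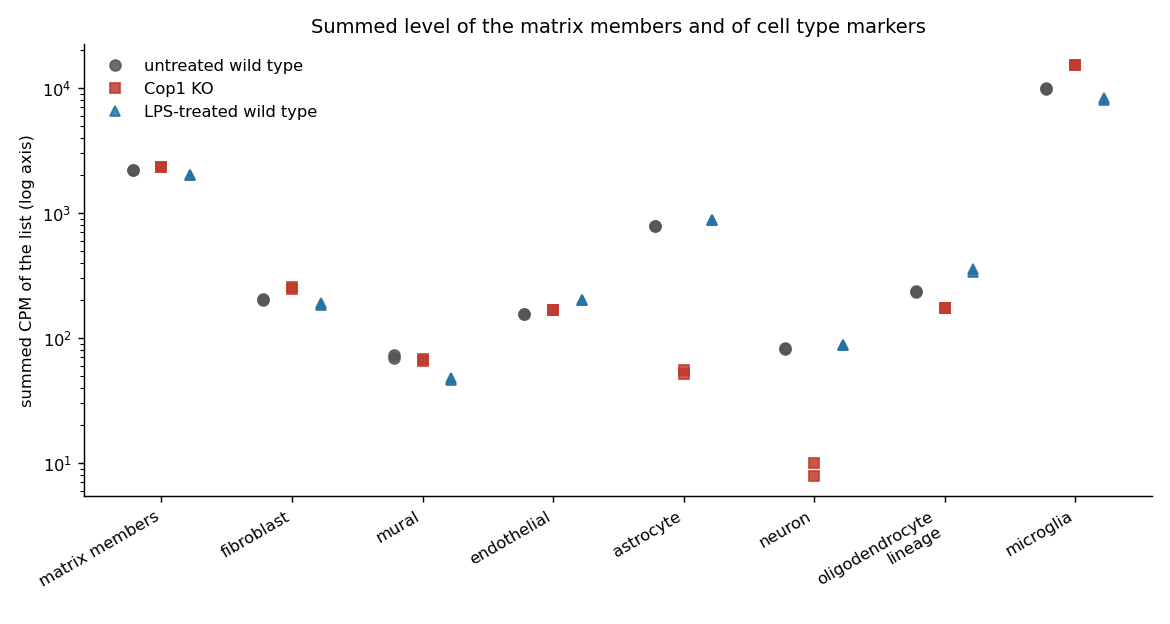
Summed CPM (log axis) of the 37 matrix genes and of 7 lists of cell type markers, each point a library. The matrix genes lie between 2020 and 2342 CPM in all 6 libraries, while the astrocyte and neuron sums are lowest in the 2 Cop1 KO libraries and the microglia sum is highest there.

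Promoter sequence is shown for the genes whose results turn on the difference between close relatives. The chains of type IV collagen, Col4a1 and Col4a2, lie head to head on mouse chromosome 8 and share their start region, and both are described below because their levels moved by different amounts with LPS. Each window runs from 250 bases before to 50 bases after the annotated start (RefSeq, GRCm38.p6), 5′ to 3′ on the strand of its gene, and capitals mark the 78 bases that both windows hold, at chr8:11312777-11312854.
Col4a1 (chr8:11312777-11313076, minus strand): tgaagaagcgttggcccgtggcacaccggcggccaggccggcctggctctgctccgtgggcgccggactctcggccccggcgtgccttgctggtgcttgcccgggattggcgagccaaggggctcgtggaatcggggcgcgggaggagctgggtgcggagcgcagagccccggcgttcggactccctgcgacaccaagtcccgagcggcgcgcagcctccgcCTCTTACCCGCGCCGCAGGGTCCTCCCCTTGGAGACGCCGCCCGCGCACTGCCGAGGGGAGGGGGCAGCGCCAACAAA
Col4a2 (chr8:11312555-11312854, plus strand): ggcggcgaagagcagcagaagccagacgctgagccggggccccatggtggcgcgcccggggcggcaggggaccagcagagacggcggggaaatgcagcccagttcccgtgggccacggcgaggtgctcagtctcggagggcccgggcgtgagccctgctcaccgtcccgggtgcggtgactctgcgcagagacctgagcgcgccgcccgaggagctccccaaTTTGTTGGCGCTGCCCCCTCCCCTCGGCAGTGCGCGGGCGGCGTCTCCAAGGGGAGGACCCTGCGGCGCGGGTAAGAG
The gene extents annotated by RefSeq overlap by 85 bases on opposite strands. By GENCODE, 0.295% of the exonic bases of Col4a1 overlap Col4a2, and unstranded counting cannot assign reads from shared bases to either gene.

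The tissue inhibitors of metalloproteinases are shown because the 3 relatives differed from each other in the libraries. In these windows capitals mark matches on either strand to any of 6 motifs, namely the TATA box (TATAAA), the CCAAT box (CCAAT), the GC box (GGGCGG), the AP-1 motif (TGANTCA), the C/EBP motif (TTNCNNAA) and the NF-kB motif.
Timp1 (chrX:20869916-20870215, plus strand): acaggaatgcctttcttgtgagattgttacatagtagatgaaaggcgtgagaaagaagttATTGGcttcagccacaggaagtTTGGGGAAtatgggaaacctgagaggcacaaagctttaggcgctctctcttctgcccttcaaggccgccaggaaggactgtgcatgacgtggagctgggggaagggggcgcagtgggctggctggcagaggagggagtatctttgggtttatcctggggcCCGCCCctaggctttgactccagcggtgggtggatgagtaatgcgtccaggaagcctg
Timp2 (chr11:118355362-118355661, minus strand): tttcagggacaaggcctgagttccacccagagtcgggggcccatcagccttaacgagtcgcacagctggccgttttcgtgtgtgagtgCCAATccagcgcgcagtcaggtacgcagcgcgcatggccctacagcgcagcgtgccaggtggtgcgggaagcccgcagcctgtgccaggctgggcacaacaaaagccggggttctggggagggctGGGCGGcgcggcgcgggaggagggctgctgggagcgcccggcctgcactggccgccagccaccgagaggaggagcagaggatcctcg
Timp3 (chr10:86300162-86300461, plus strand): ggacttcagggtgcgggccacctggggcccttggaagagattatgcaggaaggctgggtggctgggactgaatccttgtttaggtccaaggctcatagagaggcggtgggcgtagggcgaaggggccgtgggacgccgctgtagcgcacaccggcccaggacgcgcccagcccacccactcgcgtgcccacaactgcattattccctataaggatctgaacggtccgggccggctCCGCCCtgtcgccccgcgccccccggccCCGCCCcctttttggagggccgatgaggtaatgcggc
Timp1 holds matches to the CCAAT box, the GC box and the C/EBP motif, Timp2 to the CCAAT box and the GC box, and Timp3 to the GC box only. Windows were found for 23 of the 37 genes, 27 windows in all. The GC box was in 70.4% of them beside 35.7% of the 32851 windows of all genes, the CCAAT box in 44.4% beside 37.4% and the TATA box in 18.5% beside 13.6%. The AP-1 motif was in 3.7% of the members' windows beside 7.81% of all, the C/EBP motif in 40.7% of both, and the NF-kB motif in 14.8% beside 8.46%. Such matches describe letters in the windows and are no evidence of binding.

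Levels per length were compared on the authors' scale of reads per kilobase adjusted for library size (nRPKM). Among the members, which leave out other matrix genes, a pair held most of the counts. Timp2 stood at 127 and 130 nRPKM in untreated libraries and Fn1 at 77.4 and 78.6, followed at a distance by Sparc (11.1 and 11.2), Lamc1 (8.46 and 8.83), Timp3 (7.75 and 7.37) and Thbs1 (7.65 and 7.62). Timp2 and Fn1 together took 74.9% and 75.5% of the members' counts in untreated libraries, 67.4% and 67.6% in Cop1 KO and 54.1% and 53.7% in LPS libraries. The median member was low, at 0.844 nRPKM in untreated, 1.62 in Cop1 KO and 1.27 in LPS libraries. Members above 1 nRPKM numbered 16, 21 and 20 in the 3 groups, and those above 10 nRPKM numbered 3, 7 and 8.

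**Figure D2:**
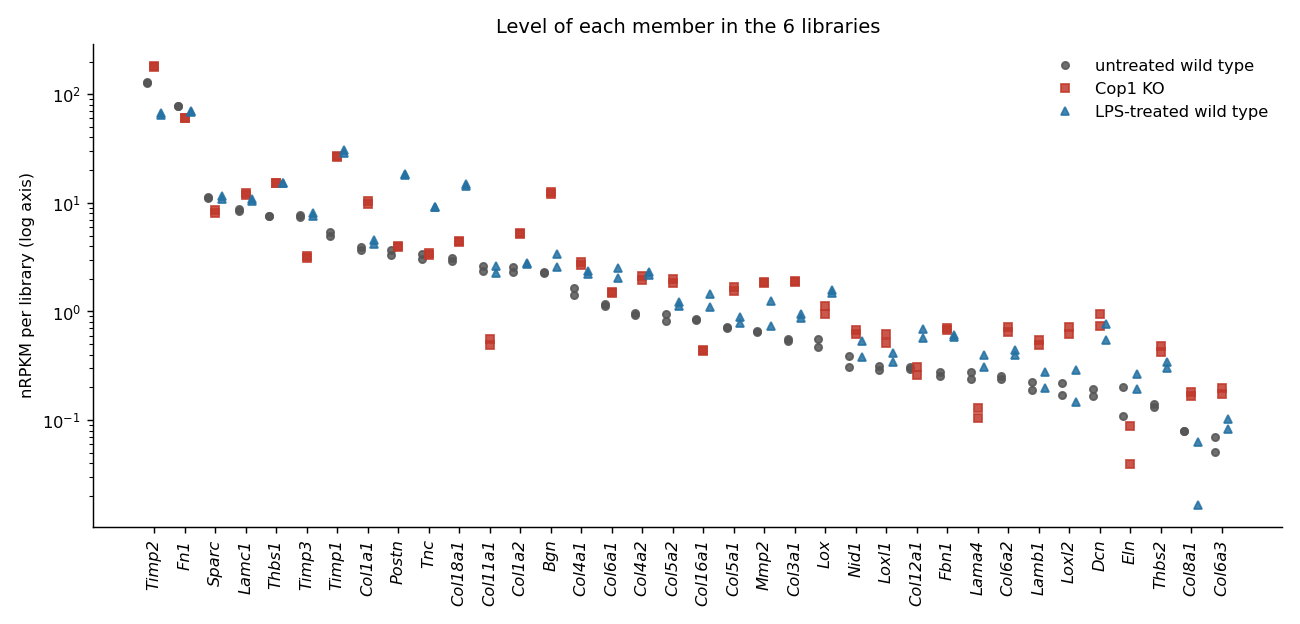
nRPKM (log axis) of the 36 members tested in each of the 6 libraries, ordered by the untreated mean. Timp2 and Fn1 stand above 60 nRPKM in all libraries and most collagens lie below 10 nRPKM.

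On the TMM scale the summed level of all 37 members moved little. It went from 2196 and 2220 CPM in untreated libraries to 2333 and 2342 in Cop1 KO and 2020 and 2020 in LPS libraries. The members' share of all counts was 0.262% and 0.264% in untreated, 0.243% and 0.244% in Cop1 KO and 0.163% and 0.163% in LPS libraries. The change of the sum therefore depends on scaling. Without Timp2 and Fn1 the sums were 550 and 545 CPM in untreated, 762 and 759 in Cop1 KO and 928 and 936 in LPS libraries. The sum of the remaining members thus stood higher in both other groups on the TMM scale. Members did not share this alike. With LPS, Col18a1 alone went from 43.7 and 40.9 to 186 and 178 CPM, while 14 of the 36 members tested did not pass. Lum, which encodes the corneal and fibrillar proteoglycan lumican, had 0 and 3 counts in untreated, 3 and 1 in Cop1 KO and 0 and 1 in LPS libraries and was not tested. The other 36 members passed the filter on low counts.

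In the comparison of Cop1 KO with untreated libraries, which asks what loss of COP1 does without a stimulus, 25 members rose, 7 fell and 4 did not pass (adjusted p under 0.05). Over all 15585 genes tested, 58.4% were called, 28.1% as higher and 30.3% as lower. Increases of at least 2-fold were called for 14 members beside 3.3% of all genes, and decreases of at least 2-fold for 5 members beside 14.5%. The members' median log2 fold change was 0.88, and that of all genes was −0.01. With limma on log2(nRPKM + 1), where the added constant shrinks changes of low genes, these medians were 0.42 and 0.07.

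In the comparison of LPS with untreated libraries, which asks what a bacterial stimulus does to wild-type cells, 18 members rose, 4 fell and 14 did not pass, beside 73.7% of all genes called, 30.2% as higher and 43.4% as lower. Increases of at least 2-fold were called for 8 members beside 14.9% of all genes and a decrease of at least 2-fold for Timp2 only, beside 18.2%. The members' median was 0.41 and that of all genes −0.18, and the latter depends on scaling: it was −0.74 when libraries were scaled by their totals alone and −0.04 with median-of-ratios factors. The members' median lay 0.59 above that of all genes under each of these 3 scalings. That is no check of the gap, because a change of scaling shifts all genes of a library alike. The gap was 0.45 without untreated replicate 2, and 0.39 and 0.22 in limma with 0.1 and 1 added. The members' median itself turned to −0.15 under scaling by totals, where 10 members were called higher and 13 lower. The members' median was 0.27 without untreated replicate 2 and 0.21 with limma on log2(nRPKM + 1).

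Both comparisons share the untreated libraries, so the direct comparison of Cop1 KO with LPS libraries was used to ask where the 2 groups differ. There 18 members were higher in Cop1 KO, 13 were lower and 5 did not pass, beside 79.6% of all genes called, 39.9% as higher and 39.6% as lower. Differences of at least 2-fold were called for 8 members as higher and 9 as lower, beside 17.5% and 24.2% of all genes.

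**Figure D3:**
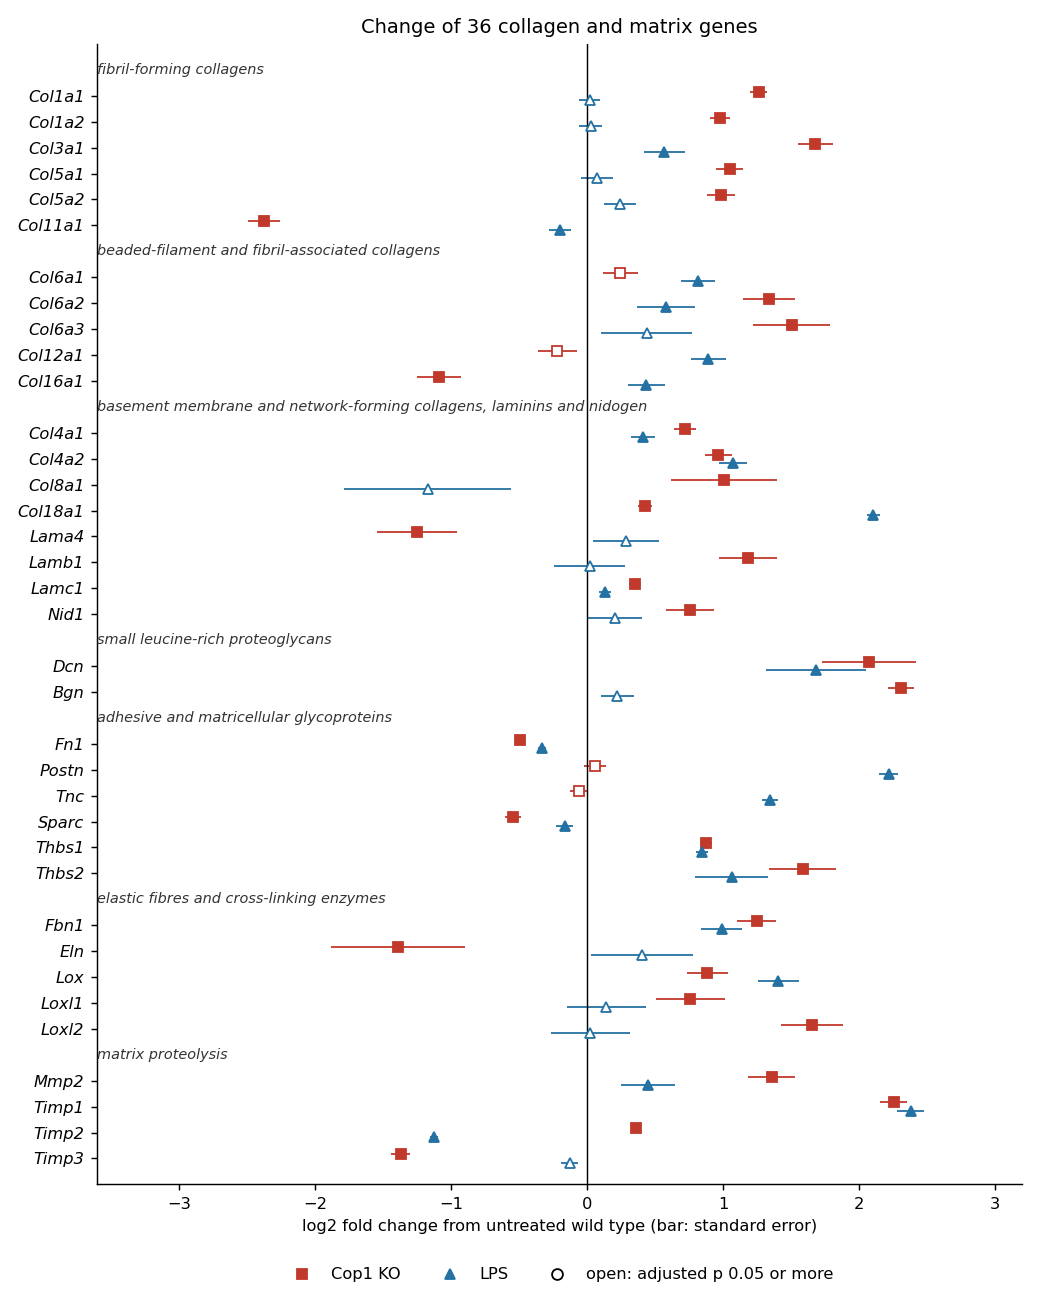
Log2 fold change from untreated wild type for the 36 members tested, grouped by role, with squares for Cop1 KO, triangles for LPS and bars for the standard error; open symbols have an adjusted p of 0.05 or more. Bgn (2.31) and Timp1 (2.25) lie farthest right for Cop1 KO and Col11a1 (−2.37) farthest left, while Timp1 (2.38), Postn (2.22) and Col18a1 (2.10) lie farthest right for LPS.

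Among the 6 fibril-forming collagens, 5 rose in Cop1 KO and Col11a1 fell. Col1a1 (Entrez Gene 12842, chromosome 11, 94936224 to 94953042 on GRCm38.p6), which encodes the α1 chain of type I collagen, had 27.4 and 25.8 CPM in untreated, 66.1 and 61.5 in Cop1 KO and 28.1 and 25.8 in LPS libraries. Both knockout libraries stood above all others, and the untreated and LPS libraries overlapped. Its log2 fold change was 1.26 in Cop1 KO (SE 0.06, adjusted p = 7.7e-24) and 0.02 with LPS (SE 0.08, adjusted p = 0.83). That LPS value passed as lower under scaling by library totals (−0.54, adjusted p = 4.7e-09). It passed as higher with only the 2 groups compared (0.16, adjusted p = 0.048). Col1a1 was higher in Cop1 KO than in LPS libraries by 1.24 (SE 0.07, adjusted p = 6.4e-23).

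The partner chain Col1a2 (chromosome 6, 4505618 to 4541543) had 19.6 and 17.6 CPM in untreated, 36.2 and 36.9 in Cop1 KO and 18.7 and 19.1 in LPS libraries, and rose by 0.98 in the knockout (SE 0.07, adjusted p = 7e-17). Col3a1, the chain of type III collagen that is laid into the same fibrils as type I, had 4.37 and 4.55, 14.5 and 14.0, and 6.37 and 6.88 CPM in the same order of groups. None of its groups overlapped, and it rose by 1.68 in Cop1 KO (SE 0.13, adjusted p = 2.1e-17) and by 0.57 with LPS (SE 0.15, adjusted p = 0.00063), the latter at 0.0061 under scaling by library totals. Col5a1 and Col5a2, the chains of type V collagen that starts fibril assembly, rose in Cop1 KO by 1.05 (SE 0.10) and 0.99 (SE 0.10). With LPS they gave 0.08 and 0.24 and did not pass. Col5a2 passed as higher with median-of-ratios factors (0.38, adjusted p = 0.0039) and in DESeq2 (0.38, adjusted p = 0.034). It also did with only the 2 groups compared (adjusted p = 0.004) and in limma with 1 (adjusted p = 0.027) or 0.1 added (adjusted p = 0.032). Under scaling by library totals Col5a1 (−0.49, adjusted p = 0.00021) and Col5a2 (−0.32, adjusted p = 0.011) passed as lower.

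Col11a1 (chromosome 3, 114030479 to 114220756), a chain of the type XI collagen best known from cartilage, went the other way from the other fibril-forming members. Col11a2, another type XI chain and no member, also fell in Cop1 KO (−0.90, SE 0.13, adjusted p = 2.3e-08). Col11a1 had 28.9 and 26.4 CPM in untreated, 5.67 and 4.99 in Cop1 KO and 22.4 and 25.9 in LPS libraries, so that only the knockout libraries stood far below. The decrease in Cop1 KO was 5.18-fold (log2 fold change −2.37, SE 0.12, adjusted p = 1.6e-26). The value with LPS was −0.20 (adjusted p = 0.029), a call that was lost with median-of-ratios factors (−0.06, adjusted p = 0.55) and without LPS replicate 1 (−0.09, adjusted p = 0.41) or untreated replicate 1 (−0.14, adjusted p = 0.26). In untreated libraries Col11a1, at 2.60 and 2.38 nRPKM, was close in level per length to Col1a2, at 2.58 and 2.31. In the knockout the values were 0.558 and 0.493 for Col11a1 and 5.20 and 5.33 for Col1a2.

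**Figure D4:**
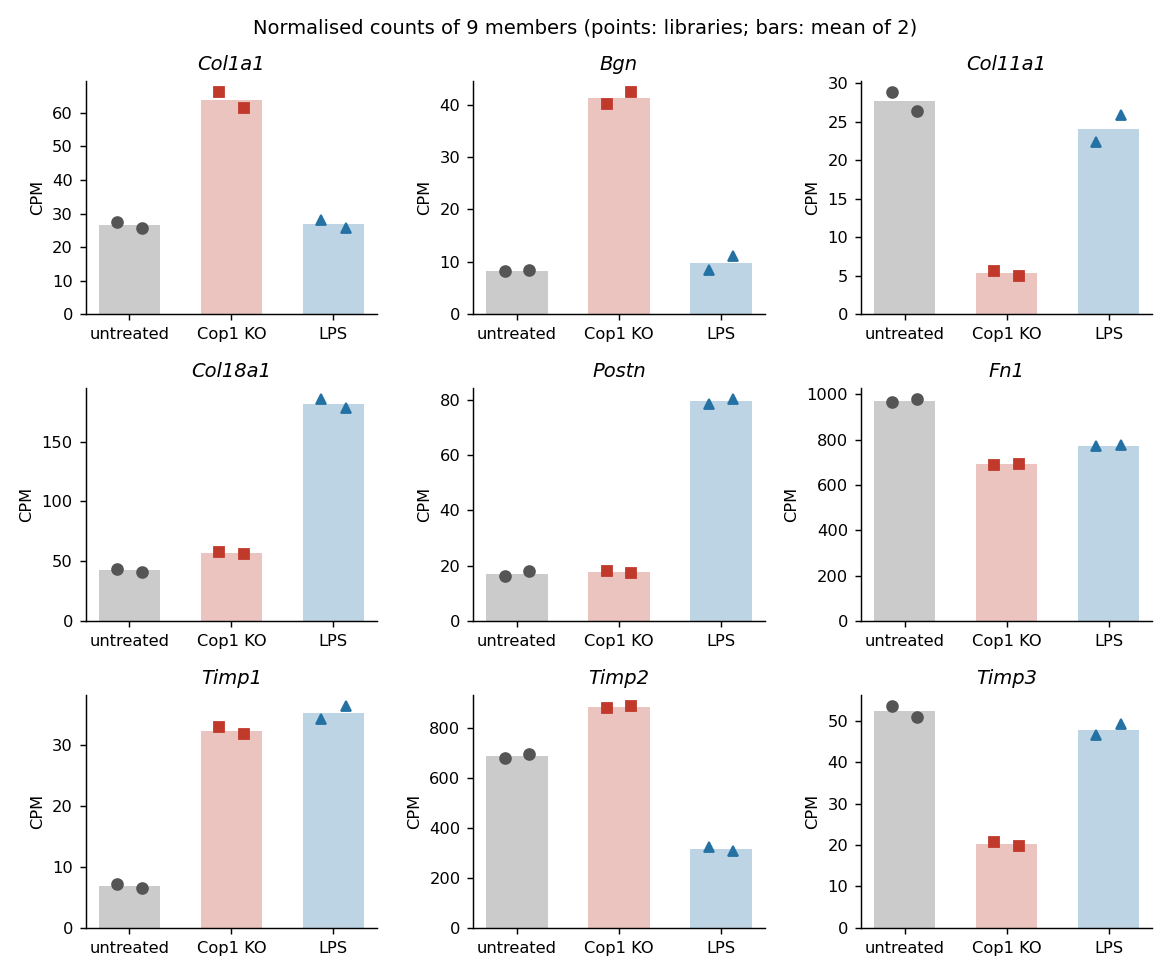
CPM in each library (points) with the mean of 2 (bars) for 9 members. Col1a1 and Bgn stand apart in Cop1 KO, Col18a1 and Postn in LPS, Timp1 in both, and Col11a1 and Timp3 are lowest in Cop1 KO.

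Type VI collagen forms beaded filaments next to cells, and its chains did not change by the same amount. Col6a2 had 2.14 and 2.27 CPM in untreated, 5.31 and 5.87 in Cop1 KO and 3.13 and 3.50 in LPS libraries and rose by 1.34 in the knockout (SE 0.19, adjusted p = 1e-08). Col6a3 rose there by 1.51 (SE 0.28, adjusted p = 4.4e-06), from 28 and 22 counts to 57 and 66. Col6a1 had 6.59 and 6.93, 7.92 and 8.12, and 13.1 and 10.7 CPM, and rose with LPS (0.82, SE 0.13, adjusted p = 8.8e-08, losing the call at 0.25 under scaling by library totals), while its value in Cop1 KO was 0.25 (adjusted p = 0.098) and passed with median-of-ratios factors (0.33, adjusted p = 0.023). The LPS increase of Col6a2 (0.58, adjusted p = 0.013) was lost without untreated replicate 1 (adjusted p = 0.06) and without LPS replicate 2 (adjusted p = 0.089), and was 0.02 (adjusted p = 0.93) under scaling by library totals.

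The fibril-associated collagens Col12a1 and Col16a1, which sit on the surface of fibrils, both rose with LPS. Col12a1 had 6.71 and 6.52 CPM in untreated, 6.17 and 5.21 in Cop1 KO and 11.1 and 13.5 in LPS libraries, an increase of 0.89 with LPS (SE 0.13, adjusted p = 1.8e-08), and its value in Cop1 KO was −0.22 (adjusted p = 0.19), which passed as lower under scaling by library totals (−0.41, adjusted p = 0.01). Col16a1 had 7.10 and 7.38, 3.38 and 3.44, and 11.2 and 8.33 CPM. The knockout value was a 2.12-fold decrease (−1.09, SE 0.16, adjusted p = 4.2e-08), and the gene rose by 0.43 with LPS (SE 0.14, adjusted p = 0.0037), where it gave 0.20 (adjusted p = 0.3) without LPS replicate 1 and −0.13 under scaling by library totals. Between Cop1 KO and LPS libraries Col16a1 differed by −1.52 (SE 0.16, adjusted p = 2.1e-12).

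The member type IV collagen chains Col4a1 and Col4a2 rose in both comparisons, by different amounts. Col4a5 (−1.47, SE 0.08) and Col4a6 (−4.31, SE 0.30), no members, fell in Cop1 KO. Col4a1 (chromosome 8, 11198423 to 11312889) had 18.1 and 15.7 CPM in untreated, 26.9 and 28.7 in Cop1 KO and 23.2 and 21.6 in LPS libraries. Col4a2 (chromosome 8, 11312805 to 11449287) had 9.21 and 8.84, 18.3 and 16.9, and 19.7 and 18.2 CPM. In both genes the untreated libraries were the lowest, and for Col4a2 the Cop1 KO and LPS libraries overlapped. In Cop1 KO, Col4a1 rose by 0.72 (SE 0.08, adjusted p = 4.1e-11) and Col4a2 by 0.97 (SE 0.10, adjusted p = 2.1e-12). With LPS, Col4a1 rose by 0.41 (SE 0.09, adjusted p = 4.1e-05), a value that turned to −0.15 under scaling by library totals, and Col4a2 by 1.07 (SE 0.10, adjusted p = 9e-14).

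The ratio of the partner chains within a library does not depend on how the libraries are scaled. Type IV collagen is built mainly from 2 α1 chains and 1 α2 chain, and the nRPKM ratio of Col4a1 to Col4a2 was 1.69 and 1.53 in untreated, 1.26 and 1.46 in Cop1 KO and 1.02 and 1.02 in LPS libraries. The 95% counting intervals of both LPS libraries, 0.879 to 1.17 and 0.876 to 1.20, ended below those of both untreated libraries, 1.44 to 1.99 and 1.30 to 1.80. For Col1a1 to Col1a2, which share the 2 to 1 build in type I collagen, the ratios were 1.53 and 1.61, 1.996 and 1.82, and 1.64 and 1.47. Col5a1 to Col5a2 gave 0.754 and 0.875, 0.921 and 0.779, and 0.799 and 0.648, with no separation of the groups. Col6a1 to Col6a2 gave 4.65 and 4.61 in untreated, 2.25 and 2.09 in Cop1 KO and 6.32 and 4.61 in LPS libraries. No test across libraries was run on these ratios, and the intervals cover counting error only.

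**Figure D5:**
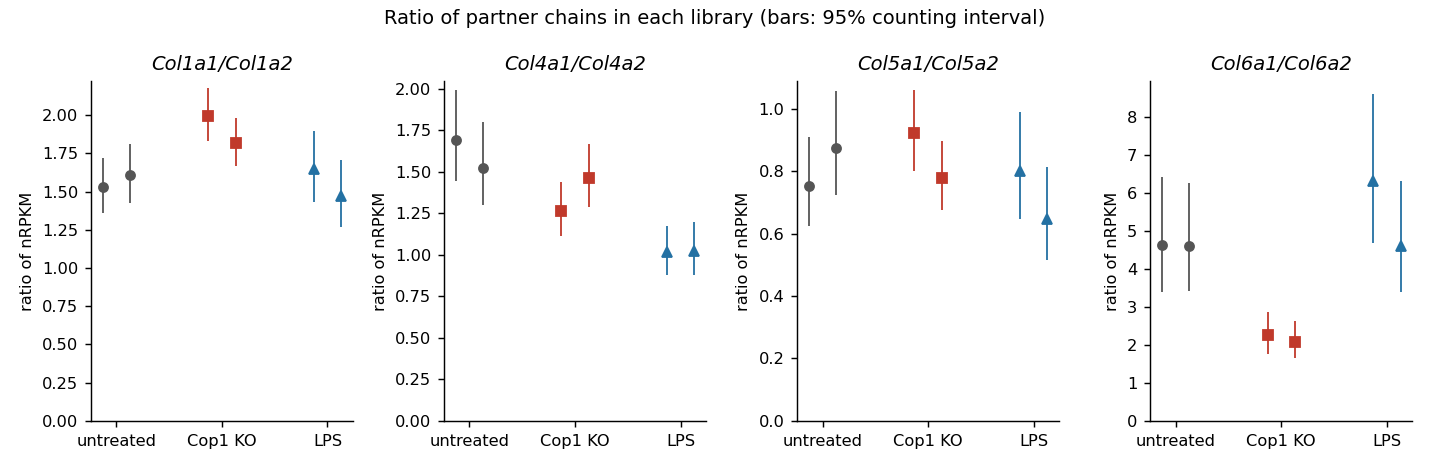
Ratio of nRPKM of partner collagen chains in each library, with 95% counting intervals as bars. Col4a1/Col4a2 is near 1.02 in both LPS libraries and at 1.53 or above in untreated libraries, and Col6a1/Col6a2 is lowest in the Cop1 KO libraries.

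Col18a1 (chromosome 10, 77052178 to 77166530), whose protein carries the endostatin fragment in vascular basement membranes, had the largest LPS increase of the member collagens. It had 43.7 and 40.9 CPM in untreated, 57.6 and 56.0 in Cop1 KO and 186 and 178 in LPS libraries, with no overlap of groups. With LPS the increase was 4.30-fold (2.10, SE 0.05, adjusted p = 1.8e-40), and Cop1 KO libraries were 1.34-fold higher (0.43, SE 0.05, adjusted p = 7.4e-10). Col8a1, a network-forming collagen of vessel walls, was near the limit of detection with 15 and 16, 28 and 26, and 2 and 7 counts. Its increase in Cop1 KO (1.01, SE 0.39, adjusted p = 0.021) lost the call when any of the 4 untreated or knockout libraries was left out (adjusted p = 0.051 to 0.1), in DESeq2 (adjusted p = 0.13) and under scaling by library totals (adjusted p = 0.061), and its value with LPS was −1.17 (adjusted p = 0.061). That LPS value of Col8a1 passed as lower under scaling by library totals (−1.72, adjusted p = 0.0043) and without LPS replicate 2 (−2.36, adjusted p = 0.021), and leaving out single libraries moved it between −2.36 and −0.49.

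The laminin chains, which join into the trimers that organise basement membranes, differed among themselves in Cop1 KO. Lamc1, the common γ1 chain, had 95.3 and 99.4 CPM in untreated, 122 and 127 in Cop1 KO and 104 and 110 in LPS libraries, and rose by 0.35 in the knockout (SE 0.04, adjusted p = 2.7e-10). Its smaller value with LPS (0.13, adjusted p = 0.0069) turned to −0.43 under scaling by library totals and did not pass without untreated replicate 1 (adjusted p = 0.13) or LPS replicate 2 (adjusted p = 0.094). Lamb1 rose in Cop1 KO from 1.71 and 2.01 to 4.50 and 3.97 CPM (1.18, SE 0.22, adjusted p = 3.1e-06). Lama4, an α chain of vessel and muscle laminins, fell there from 2.46 and 2.13 to 0.855 and 1.06 CPM (−1.25, SE 0.29, adjusted p = 0.00015). Lamb1 and Lama4 did not pass with LPS. Nid1, the nidogen that links laminin to type IV collagen, rose by 0.76 in Cop1 KO (SE 0.18, adjusted p = 0.00025), and its value with LPS was 0.21 (adjusted p = 0.36).

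The small leucine-rich proteoglycans bind collagen fibrils and growth factors, and both tested members were among the strongest increases of the members in Cop1 KO. Relatives outside the members fell there, namely Fmod (−1.26, SE 0.10), Podn (−2.08, SE 0.34), Ogn (−2.24, SE 0.74) and Prelp (−2.31, SE 0.82). Ogn and Prelp had at most 25 counts in any library. Bgn (chromosome X, 73483601 to 73495936), which encodes biglycan, had 8.29 and 8.39 CPM in untreated, 40.2 and 42.4 in Cop1 KO and 8.44 and 11.1 in LPS libraries. Only the knockout libraries stood apart by a wide gap. The increase was 4.94-fold (2.31, SE 0.09, adjusted p = 4.7e-29), and the value with LPS was 0.22 (SE 0.12, adjusted p = 0.092), which passed with median-of-ratios factors (0.36, adjusted p = 0.0067) and was −0.34 under scaling by library totals. Between Cop1 KO and LPS libraries Bgn differed by 2.08 (SE 0.10, adjusted p = 1.4e-26).

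Dcn, which encodes decorin, was low, with 13 and 16 counts in untreated, 46 and 60 in Cop1 KO and 27 and 35 in LPS libraries. It rose by 2.07 in Cop1 KO (SE 0.35, adjusted p = 1.5e-07) and by 1.68 with LPS (SE 0.37, adjusted p = 3.2e-05). The Cop1 KO and LPS libraries overlapped on the normalised scale, and their difference of 0.39 (SE 0.28) did not pass (adjusted p = 0.19), though it did under scaling by library totals (0.76, adjusted p = 0.01). Dcn lies next to Lum, 47.3 kb away on chromosome 10, and Lum stayed at 3 counts or fewer in every library.

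Fn1 (chromosome 1, 71585473 to 71653280), which encodes fibronectin, the abundant adhesive protein of plasma and matrix, was lower in both groups than in untreated libraries. It had 964 and 979 CPM in untreated, 690 and 693 in Cop1 KO and 769 and 774 in LPS libraries, with no overlap. The decrease was 1.40-fold for Cop1 KO (−0.49, SE 0.03, adjusted p = 1.7e-21), while that for LPS was 1.26-fold (−0.33, SE 0.03, adjusted p = 2.7e-15). Sparc, a collagen-binding protein that astrocytes and microglia also make, fell in Cop1 KO from 53.1 and 53.8 to 35.7 and 37.6 CPM (−0.54, SE 0.06, adjusted p = 2.7e-11). Its LPS value (−0.16, adjusted p = 0.013) was −0.02 with median-of-ratios factors and lost the call there, without LPS replicate 1 (adjusted p = 0.16) and without untreated replicate 2 (adjusted p = 0.069).

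Periostin and tenascin-C, matricellular proteins that are best known from wounds and remodelling tissue, rose with LPS, and their values in Cop1 KO did not pass under the scaling used here. Postn (chromosome 3, 54359267 to 54391041) had 16.2 and 17.97 CPM in untreated, 18.1 and 17.5 in Cop1 KO and 78.5 and 80.3 in LPS libraries. The untreated and knockout libraries overlapped, and both LPS libraries stood far above. It rose 4.65-fold with LPS (2.22, SE 0.07, adjusted p = 3.8e-34), and its value in Cop1 KO was 0.06 (SE 0.08, adjusted p = 0.57). Tnc (chromosome 4, 63959785 to 64047015) had 33.1 and 37.2, 33.0 and 34.6, and 89.2 and 89.7 CPM. It rose 2.54-fold with LPS (1.35, SE 0.06, adjusted p = 3.1e-27), and its value in Cop1 KO was −0.06 (SE 0.06, adjusted p = 0.46), which passed as lower under scaling by library totals (−0.25, adjusted p = 0.00075). The direct difference between Cop1 KO and LPS libraries was −2.16 for Postn (SE 0.07, adjusted p = 3e-33) and −1.40 for Tnc (SE 0.06, adjusted p = 1.4e-27).

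The member thrombospondin genes Thbs1 and Thbs2, whose products bind cell surface receptors and latent TGF-β, rose in both comparisons. Their relative Thbs3, no member, fell in Cop1 KO (−1.44, SE 0.27, adjusted p = 3.6e-06) and had −0.44 with LPS (SE 0.24, adjusted p = 0.091). Thbs1 had 66.0 and 65.7 CPM in untreated, 120 and 121 in Cop1 KO and 118 and 118 in LPS libraries. The knockout and LPS libraries lay within a few CPM of each other, and their difference of 0.03 (SE 0.04) did not pass (adjusted p = 0.59). Under scaling by library totals that Thbs1 difference was 0.40 and passed (adjusted p = 4.6e-12). The increases over untreated were 0.87 in Cop1 KO (SE 0.04, adjusted p = 3.1e-24) and 0.85 with LPS (SE 0.04, adjusted p = 9.8e-24). Thbs2 was low, at 31 and 31, 85 and 76, and 42 and 44 counts, and rose by 1.59 in Cop1 KO (SE 0.25, adjusted p = 8.2e-08) and by 1.06 with LPS (SE 0.27, adjusted p = 0.0004), the latter at 0.50 (adjusted p = 0.076) under scaling by library totals.

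Elastic fibres consist of elastin on a scaffold of fibrillin, and the values of the members Eln and Fbn1 had opposite signs in Cop1 KO. Another fibrillin gene, Fbn2, no member, fell there, from 81 and 102 counts to 0 and 2. Fbn1 had 4.09 and 3.80 CPM in untreated, 9.59 and 9.14 in Cop1 KO and 7.66 and 8.03 in LPS libraries, and rose by 1.25 in Cop1 KO (SE 0.14, adjusted p = 2.9e-11) and by 0.99 with LPS (SE 0.15, adjusted p = 5.8e-08). By GENCODE, Gm9913 on the opposite strand overlaps 20.1% of the exonic bases of Fbn1, which unstranded counts cannot separate. Eln had 31 and 18 counts in untreated, 11 and 5 in Cop1 KO and 19 and 24 in LPS libraries. Its decrease in Cop1 KO (−1.39, SE 0.49, adjusted p = 0.0083) was −0.90 without untreated replicate 1 and −0.92 without Cop1 KO replicate 2. The Eln decrease did not pass in DESeq2 (adjusted p = 0.078) or in limma with 1 (adjusted p = 0.1) or 0.1 added (adjusted p = 0.064).

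The lysyl oxidases, the copper enzymes that cross-link collagen and elastin, rose in Cop1 KO for all 3 members measured. Lox had 4.09 and 3.43 CPM in untreated, 7.52 and 6.36 in Cop1 KO and 10.2 and 9.72 in LPS libraries, rising by 0.89 in Cop1 KO (SE 0.15, adjusted p = 1.5e-06) and by 1.41 with LPS (SE 0.15, adjusted p = 3.1e-12). None of its groups overlapped. Loxl2, which acts on type IV collagen, rose in Cop1 KO from 1.39 and 1.79 to 5.40 and 4.68 CPM (1.66, SE 0.23, adjusted p = 3.4e-09), while its LPS libraries, at 2.12 and 1.09 CPM, spanned the untreated range (0.03, adjusted p = 0.94). Loxl1, known for elastic fibres, rose by 0.76 in Cop1 KO (SE 0.25, adjusted p = 0.008) and lost that call when untreated replicate 1 was left out (adjusted p = 0.058) and when Cop1 KO replicate 1 was (adjusted p = 0.1). Its value with LPS was 0.14 (adjusted p = 0.67).

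Mmp2, the gelatinase that degrades type IV and denatured collagen, had 3.14 and 3.06 CPM in untreated, 8.06 and 7.81 in Cop1 KO and 5.31 and 3.08 in LPS libraries. It rose 2.56-fold in Cop1 KO (1.36, SE 0.17, adjusted p = 5.8e-10). The untreated and LPS libraries overlapped, and the LPS value (0.45, SE 0.20, adjusted p = 0.038) rested on LPS replicate 1, without which it was −0.0078 (adjusted p = 0.98). It also missed the threshold without either untreated library (adjusted p = 0.085 and 0.12) and was −0.11 under scaling by library totals.

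The tissue inhibitors of metalloproteinases, whose promoters are printed above, followed 3 different patterns. Timp1 (chromosome X, 20870166 to 20874737), the inducible inhibitor, had 7.10 and 6.45 CPM in untreated, 32.9 and 31.7 in Cop1 KO and 34.1 and 36.3 in LPS libraries. The increases were 4.77-fold (2.25, SE 0.10, adjusted p = 2.7e-28) for Cop1 KO, and 5.20-fold for LPS (2.38, SE 0.10, adjusted p = 1.2e-29). The difference between Cop1 KO and LPS was −0.12 (SE 0.07, adjusted p = 0.11), it passed with median-of-ratios factors (−0.18, adjusted p = 0.023) and turned to 0.25 (adjusted p = 0.002) under scaling by library totals.

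Timp2 (chromosome 11, 118301061 to 118355411), an inhibitor that also takes part in the activation of MMP2, had 682 and 697 CPM in untreated, 882 and 890 in Cop1 KO and 323 and 309 in LPS libraries, with no overlap. The gene rose 1.28-fold in Cop1 KO (0.36, SE 0.03, adjusted p = 1e-15), and it fell 2.18-fold with LPS (−1.12, SE 0.03, adjusted p = 2.3e-36). These changes had opposite signs. The direct difference between the 2 groups was 2.80-fold (1.49, SE 0.03, adjusted p = 5.3e-42).

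Timp3 (chromosome 10, 86300412 to 86349505), the inhibitor that binds to the matrix itself, had 53.6 and 51.0 CPM in untreated, 20.8 and 19.7 in Cop1 KO and 46.5 and 49.3 in LPS libraries. It fell 2.58-fold in Cop1 KO (−1.37, SE 0.07, adjusted p = 2.7e-24). With LPS it was −0.13 (SE 0.06, adjusted p = 0.059), and this value changed sign to 0.01 with median-of-ratios factors. It passed as lower under scaling by library totals (−0.69, adjusted p = 9.6e-15) and without the filter on low counts (−0.15, adjusted p = 0.041). It also passed when Cop1 KO replicate 1 was left out, at −0.14 (adjusted p = 0.041), or LPS replicate 2, at −0.17 (adjusted p = 0.045). The gene lies within Syn3, and 21.3% of its exonic bases overlap that gene on the opposite strand. Per length, Timp2 exceeded Timp1 by 23.6 and 26.5 times in untreated, 6.59 and 6.90 times in Cop1 KO and 2.33 and 2.09 times in LPS libraries, and exceeded Timp3 by 16.4 and 17.7, 54.9 and 58.3, and 8.97 and 8.12 times.

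Other genes of matrix production, taken from lists outside the members, were counted in the same fits. Beside each count below stand the shares over all genes, 28.1% called higher and 30.3% lower in Cop1 KO. With LPS these shares were 30.2% and 43.4%. No list was tested as a set. Of 21 enzymes of collagen biosynthesis, 11 rose and 6 fell in Cop1 KO, and 5 rose and 8 fell with LPS. Plod3, a lysyl hydroxylase, rose in both, from 148 and 147 CPM to 246 and 250 in Cop1 KO (0.75, SE 0.03) and 509 and 499 with LPS (1.77, SE 0.03). Bmp1, the protease that trims procollagen, fell in Cop1 KO (−1.63, SE 0.09) and Plod2 fell as well (−1.56, SE 0.13). With LPS the prolyl hydroxylase subunit P4ha1 rose (1.39, SE 0.03) and the collagen galactosyltransferase Colgalt1 fell (−1.22, SE 0.04).

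Of 13 other collagens tested, 5 rose and 4 fell in Cop1 KO, and 6 rose and 1 fell with LPS. The type IV chains encoded on the X chromosome went against Col4a1 and Col4a2 in Cop1 KO: Col4a6 fell from 11.03 and 12.2 to 0.765 and 0.397 CPM and Col4a5 from 35.8 and 35.4 to 12.4 and 13.2 CPM. Col14a1 rose in Cop1 KO (1.45, SE 0.09) and fell with LPS (−1.75, SE 0.17), while Col27a1 rose with LPS from 3.37 and 3.69 to 26.0 and 26.6 CPM and Col11a2 rose by 1.24 (SE 0.10). Of 12 other basement membrane genes tested, 2 rose and 6 fell in Cop1 KO, among the latter Lama5 (−3.38, SE 0.17), Npnt (−1.75, SE 0.15) and Nid2 (−1.23, SE 0.11). With LPS 2 rose and 5 fell, with agrin, Agrn (1.87, SE 0.04), rising and the laminin chain Lama3 (−2.60, SE 0.19) and Npnt (−0.83, SE 0.14) falling.

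Of 12 other proteoglycans, hyaluronan synthases and leucine-rich proteins tested, 1 rose and 8 fell in Cop1 KO. The brain chondroitin sulphate proteoglycans Ncan (−3.17, SE 0.03), Bcan (−4.03, SE 0.13) and Vcan (−2.67, SE 0.13) fell there. With LPS 5 rose and 2 fell. Vcan, which encodes versican, rose from 19.9 and 19.4 to 173 and 179 CPM (3.16, SE 0.06), and the hyaluronan synthase Has1 rose from 1 and 4 counts to 500 and 509 counts, while Fmod fell (−0.60, SE 0.10). Of 12 other elastic fibre genes tested, 5 rose and 3 fell in Cop1 KO. Fbln2 rose by 1.52 (SE 0.08) and Ltbp2 by 2.51 (SE 0.15), and Fbn2 went from 81 and 102 counts to 0 and 2. With LPS 4 rose, Loxl4 (5.09, SE 0.57) and Ltbp1 (1.24, SE 0.17) among them, and 4 fell, Emilin1 (−0.93, SE 0.13) among them.

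Of 13 other matricellular genes tested, 3 rose and 7 fell in Cop1 KO. Sparcl1 (−4.02, SE 0.06), known from astrocytes, and Tnr (−3.85, SE 0.07), known from oligodendrocyte lineage cells, fell, and Ccn2 rose from 9.60 and 9.10 to 33.9 and 36.5 CPM. With LPS 2 rose and 6 fell. Tgfbi fell from 125 and 124 to 33.6 and 33.4 CPM, the osteopontin gene Spp1 fell (−0.26, SE 0.02), and Thbs4 had 0 counts in the untreated and Cop1 KO libraries and 24 and 11 counts with LPS. Of 20 matrix receptors tested, 6 rose and 11 fell in Cop1 KO, and 8 rose and 6 fell with LPS. Ddr1, a collagen receptor kinase, fell in Cop1 KO (−3.24, SE 0.10), as did the laminin receptor subunit Itga7 (−3.42, SE 0.15), while the syndecan Sdc3 rose (1.11, SE 0.03). With LPS the syndecan Sdc4 rose from 60.3 and 59.8 to 1758 and 1738 CPM, the fibronectin receptor subunit Itga5 rose by 2.66 (SE 0.03) and the laminin receptor subunit Itga6 fell (−2.41, SE 0.04). The sums of the astrocyte, neuron and oligodendrocyte markers given above were lower in both Cop1 KO libraries than in the untreated ones, and their part in these counts was not tested.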

How the data were processed

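Polyadenylated RNA of 6 libraries was sequenced, per the labels' protocols, from column-purified, DNase-treated RNA with an unstranded TruSeq kit as single-end reads. The submitters' processing notes name GSNAP and GRCm38. Aligner version, annotation release and size-factor method are not given in those sources. Deposited counts are unique reads per gene model, and the deposited nRPKM values are RPKM that the authors multiplied by a size factor per library, per the file headers. The labels' treatment field gave the groups and gives no batch, pairing or replicate number.

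Of 36528 Entrez identifiers, 31049 were named from RefSeq and 78 from GENCODE. The 5401 without a name held 1.07% to 1.30% of counts. Counts were fitted in R 4.3.3 with edgeR 4.0.16: genes kept by filterByExpr (15585), TMM factors (1.19 untreated, 1.04 Cop1 KO, 0.806 LPS), 1 quasi-likelihood fit of all 6 libraries with 3 residual degrees of freedom, 3 contrasts, and Benjamini-Hochberg adjustment over all genes tested, called under 0.05 with no fold minimum. The biological coefficient of variation was 2.7%. CPM uses the TMM library sizes. SE comes from the fit weights and quasi-likelihood dispersion. The fit was tested on simulated counts.

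Alternatives were median-of-ratios factors, library totals alone, no filter, at least 10 counts in 2 libraries, DESeq2 1.42.0, only the 2 groups compared, leaving out each library, and limma 3.58.1 on log2(nRPKM + 1) and log2(nRPKM + 0.1), where the added constant shrinks changes of low genes. Ratios carry exact 95% counting intervals from conditional binomial limits. Exon overlap came from GENCODE and promoter windows from RefSeq. Python 3.11.15 joined the tables.

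The members and the 14 other lists were chosen with earlier results of these data known. Any member may be named; of each other list, up to 3 genes with the smallest p in the Cop1 KO and in the LPS comparison are named, plus Cop1. The fibroblast markers, Cldn5, Thbs3, Podn, Ogn, Prelp and the Cop1 KO values of Fmod and Col11a2 go beyond that rule. They were chosen after their values were seen.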

Additional observations from a re-analysis of the deposited data

How the results depend on the processing

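No paired analysis was possible because the labels give no replicate numbers. In Cop1 KO against untreated, the counts of members higher and lower stayed within 1.5 times of those reported under every alternative. With LPS they did not: scaling by library totals gave 10 higher and 13 lower, and 2 were lower with median-of-ratios factors, in DESeq2, with only the 2 groups compared and in limma with either constant. Leaving out single libraries gave 2 to 6 lower. Fn1 and Timp2 were the genes lower throughout.

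Scaling by library totals moved the median of all genes from −0.01 to −0.20 in Cop1 KO, from −0.18 to −0.74 with LPS and from 0.03 to 0.40 between Cop1 KO and LPS. It reversed the LPS median of the members (−0.15) and the LPS values of Col1a1 (−0.54), Col1a2 (−0.54), Col4a1 (−0.15), Col5a1 (−0.49), Col5a2 (−0.32), Col6a3 (−0.12), Col16a1 (−0.13), Bgn (−0.34), Eln (−0.16), Loxl1 (−0.42), Loxl2 (−0.54), Mmp2 (−0.11), Lama4 (−0.28), Lamb1 (−0.54), Lamc1 (−0.43), Nid1 (−0.36) and a mural marker (Tagln, LPS vs untreated, −0.047). It also reversed Postn in Cop1 KO (−0.13), and Col4a2 (0.27), Fn1 (0.21) and Timp1 (0.25) between Cop1 KO and LPS. The share of calls that were higher moved from 48.1% to 24.4% in Cop1 KO (58.4% with median-of-ratios factors, 63.6% in limma with 1 added), from 41.1% to 19.9% with LPS and from 50.2% to 64.5% between Cop1 KO and LPS.

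Values near 0 changed sign elsewhere. In Cop1 KO, Tnc was 0.028 with median-of-ratios factors, 0.028 in DESeq2, and 0.057 and 0.072 in limma with 1 and 0.1 added. With LPS, Timp3 was 0.014, 0.014, 0.032 and 0.036 in the same order and 0.017 with only the 2 groups compared. Between Cop1 KO and LPS, Thbs1 was −0.030, −0.030, −0.0078 and −0.0082. Without a filter on low counts, the LPS values of Col1a1 and Lamb1 were −0.0025 and −0.0036. Leaving out single libraries moved Postn between −0.014 and 0.14 and Tnc between −0.14 and 0.031 in Cop1 KO. With LPS it moved Col1a1 between −0.046 and 0.082, Col1a2 between −0.056 and 0.10, Col5a1 between −0.027 and 0.17, Loxl2 between −0.55 and 0.41, Mmp2 between −0.0078 and 0.78, Lamb1 between −0.25 and 0.26 and Nid1 between −0.033 and 0.42. The cause was not tested.

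With 2 libraries a group, members with few counts, such as Eln, Col8a1 and Dcn, carry wide errors, and Lum could not be measured at this depth.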
